A study of Rattus norvegicus with 15 samples.

Results

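The early sterol pathway is the run of enzymes that converts acetyl-CoA, through mevalonate, farnesyl diphosphate and squalene, into squalene epoxide. It was followed here as 9 genes, listed in reaction order as Acat2, Hmgcs1, Mvk, Pmvk, Mvd, Idi1, Fdps, Fdft1 and Sqle. The genes were chosen by their place in the pathway, after the ethanol minus water differences of sterol genes on these same arrays were known. Every probe set that the array annotation pairs with exactly 1 of these symbols was taken. That gave 12 of the 31042 probe sets that are not controls, and they stood for 8 of the 9 genes. The expression of Hmgcs1, the synthase that makes HMG-CoA, was not analysed here.

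The samples were ventral tegmental areas, a midbrain area with the dopamine cell bodies of the reward pathway, from 7 rats of the ethanol group and 8 rats of the water group, described as age-matched controls, with 1 Affymetrix array per rat. The series title places the work in alcohol-preferring P rats, a rat line selected for how much alcohol it drinks, after loss-of-control drinking. The labels of single rats give no line, age in days, sex, ethanol dose or time since the last drink. Nothing in them says how the rats were housed or dissected. The p-values set the group difference against the spread between these rats. A difference in housing or dissection between the groups could not be told apart from ethanol. Ethanol rat 3 was not analysed here. Values are log2 probe-set signals made with RMA, which puts all arrays on the same intensity distribution, so a difference of -1 would be a halving of signal and a shift common to most transcripts would not be seen. Array medians lay between 7.73 and 7.79. Signals of different probe sets are not on a common scale, so levels were compared between rats and never between genes. Th, the rate-limiting enzyme of dopamine synthesis, was bright in both groups, at 14.94 ± 0.22 (SD) in the 7 ethanol rats, against 14.80 ± 0.26 (SD) in the 8 water rats.

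Sterol synthesis is controlled at transcription by SREBP-2, the product of Srebf2. When membrane cholesterol is low this factor is carried from the endoplasmic reticulum to the Golgi, cut free, and enters the nucleus to switch on nearly all enzymes of the pathway together, usually beside the CCAAT-binding factor NF-Y and Sp1. Plasma cholesterol does not cross the blood-brain barrier to any great extent, so the brain makes its own. In the adult brain astrocytes carry much of that synthesis, and oligodendrocytes use it for myelin. Farnesyl diphosphate is the branch point, since it also feeds protein prenylation, ubiquinone and dolichol.

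Promoter sequences show which control elements the genes share that their choice did not use. The RefSeq promoter table (GRCr8, 250 bases before to 50 after the start of each gene) held 6 of the 9 genes, namely Acat2, Hmgcs1, Mvk, Mvd, Idi1 and Fdps. Of the other genes, Pmvk, Fdft1 and Sqle are named only. The 4 printed here are those of the gene with the largest measured difference among the 6 (Idi1), of the first enzyme (Acat2), of the gene with the most CCAAT boxes (Mvk) and of the branch-point synthase (Fdps). Capitals mark CCAAT on either strand, so that ATTGG is the same box read backwards, and in Fdps also TCACACGAG.

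Acat2, chr1:50100590-50100889, plus strand: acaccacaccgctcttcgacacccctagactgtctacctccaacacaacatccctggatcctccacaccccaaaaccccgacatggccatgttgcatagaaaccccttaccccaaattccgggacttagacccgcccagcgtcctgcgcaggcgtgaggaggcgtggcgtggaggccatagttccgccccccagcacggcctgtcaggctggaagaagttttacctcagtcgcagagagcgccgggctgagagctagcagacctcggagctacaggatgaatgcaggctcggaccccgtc
Mvk, chr12:47819454-47819753, minus strand: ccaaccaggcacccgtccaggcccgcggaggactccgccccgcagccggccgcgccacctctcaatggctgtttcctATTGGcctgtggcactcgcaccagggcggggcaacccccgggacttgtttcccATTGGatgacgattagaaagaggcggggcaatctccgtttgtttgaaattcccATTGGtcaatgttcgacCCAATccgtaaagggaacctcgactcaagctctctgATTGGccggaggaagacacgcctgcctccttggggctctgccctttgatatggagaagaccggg
Idi1, chr17:66547475-66547774, minus strand: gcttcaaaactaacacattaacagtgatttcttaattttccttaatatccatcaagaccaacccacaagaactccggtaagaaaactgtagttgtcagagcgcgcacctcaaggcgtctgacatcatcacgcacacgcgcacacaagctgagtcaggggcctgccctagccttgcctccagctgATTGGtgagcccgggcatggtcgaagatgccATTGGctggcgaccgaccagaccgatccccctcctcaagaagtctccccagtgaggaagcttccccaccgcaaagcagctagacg
Fdps, chr2:176804767-176805066, minus strand: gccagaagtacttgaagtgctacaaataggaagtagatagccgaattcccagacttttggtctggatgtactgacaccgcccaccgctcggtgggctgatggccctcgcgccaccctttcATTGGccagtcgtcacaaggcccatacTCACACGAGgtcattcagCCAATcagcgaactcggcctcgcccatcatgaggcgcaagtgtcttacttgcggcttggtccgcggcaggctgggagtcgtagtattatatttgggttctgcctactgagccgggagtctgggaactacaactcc

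CCAAT was present in 5 of the 6 promoters, all but Acat2, and in 37.5% of all 33469 promoters of the table. Mvk held 5 copies, and Hmgcs1, Mvd, Idi1 and Fdps held 2 each, with no overlap between copies. The Sp1 hexamer GGGCGG, either strand, was present in 5 of 6, all but Idi1, and in 33.1% of all promoters. The sterol element core TCACNCCAC and the palindrome TCACGTGA, which SREBP also binds, were in 0 of the 6, against 1.12% and 0.777% of all promoters. TCACACGAG, the form of sterol element described in the farnesyl diphosphate synthase gene and searched for after the sequences had been seen, was in Fdps alone of the 6 and in 0.123% of all promoters. These are letter matches in a short window and describe sequence only.

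**Figure D1:**
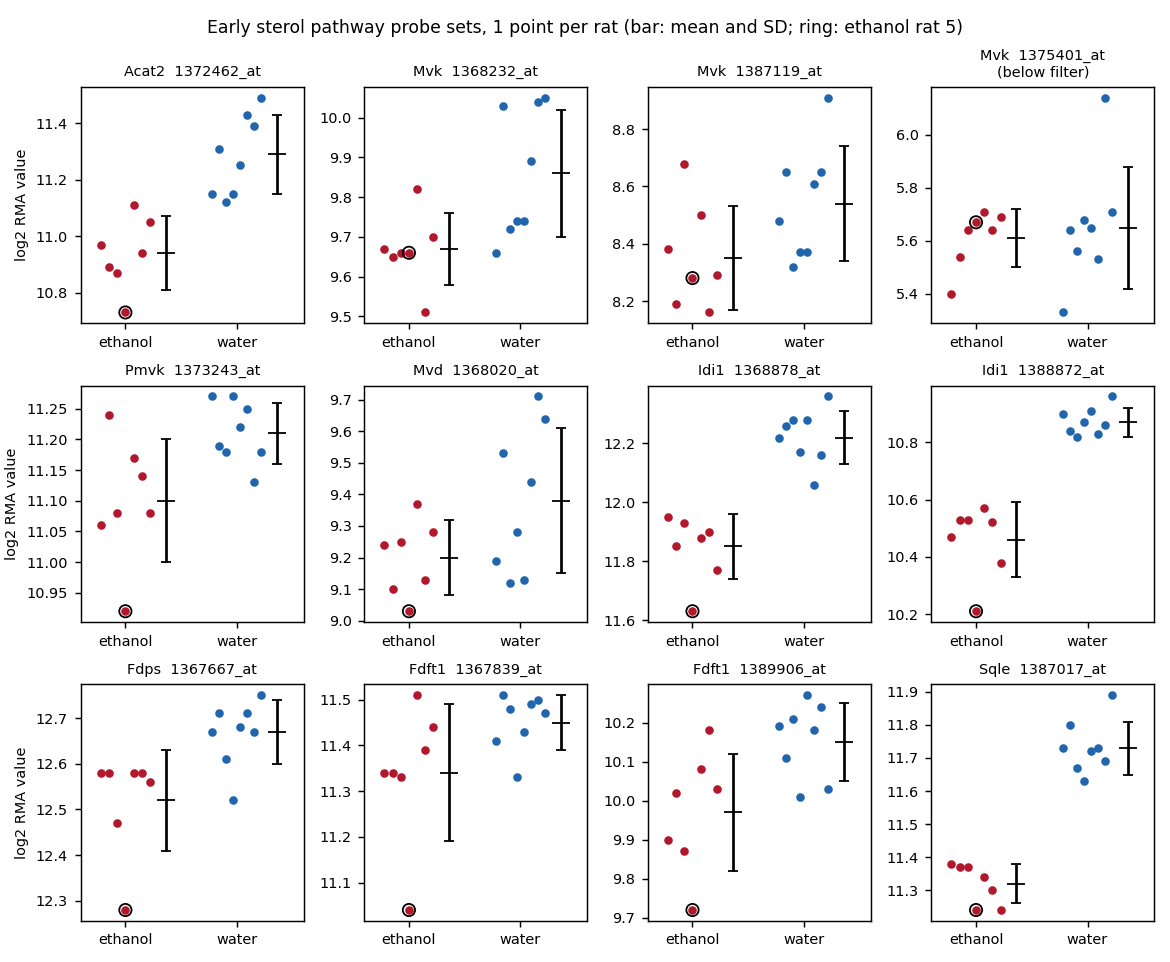
Log2 RMA value of each early sterol pathway probe set, 1 point per rat, ethanol left (n = 7) and water right (n = 8), with the group mean and SD as a bar and ethanol rat 5 ringed. The groups are fully apart in Acat2, both Idi1 probe sets and Sqle, and each panel has its own axis.

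All 11 probe sets of these genes that passed the filter on dim signal (a mean over the 15 arrays of at least 6.94) had a lower mean in ethanol rats, with differences from -0.42 to -0.11 log2 units and a median of -0.19. Over all 18625 probe sets that passed, the median difference was 0.0062 and 46.7% had a lower mean in ethanol rats. The genes fell into those with differences near -0.4 (Acat2, Idi1 and Sqle) and those between -0.19 and -0.11 (Mvk, Pmvk, Mvd, Fdps and Fdft1). In limma's fit over the whole array with Benjamini-Hochberg adjustment, 4 of the 11 were among the probe sets called lower at an adjusted p below 0.05, where 0.542% of all probe sets were. They stood for 3 genes. The same 4 were those in which all ethanol rats lay below all water rats, which held for 0.376% of all probe sets. Because this contrast was known when the genes were chosen, these counts describe the genes and nothing is read from them, and no p-value is given for a single one of the 9 genes. These arrays measure bulk tissue, in which fewer cells of a type and less RNA per cell cannot be told apart.

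Acat2 encodes the cytosolic thiolase that joins acetyl-CoA molecules into acetoacetyl-CoA and so starts the pathway. Its values in ethanol rats ran from 10.73 through a median of 10.94 to 11.11, against 11.12, 11.28 and 11.49 in water rats. The groups did not overlap, but the highest ethanol rat and the lowest water rat nearly touched. The difference was -0.35 log2 units (SE 0.07, 95% interval -0.49 to -0.21), which puts ethanol rats at 78.5% of the water signal.

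The kinases Mvk and Pmvk phosphorylate mevalonate in turn, and the decarboxylase Mvd then yields isopentenyl diphosphate, the building unit of all isoprenoids. The brighter Mvk probe set had values of 9.51, 9.66 and 9.82 (lowest, median and highest) in ethanol rats, against 9.66, 9.82 and 10.05 in water rats, a difference of -0.19 (SE 0.07). The groups overlapped, and 4 of the 8 water rats lay within the ethanol range. The second Mvk probe set was dimmer and gave 8.16, 8.29 and 8.68 in ethanol rats and 8.32, 8.54 and 8.91 in water rats, again a difference of -0.19 (SE 0.09). The third Mvk probe set was too dim for the filter, with means of 5.61 ± 0.11 (SD) over the 7 ethanol rats and 5.65 ± 0.23 (SD) over the 8 water rats.

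Pmvk had values of 10.92, 11.08 and 11.24 in ethanol rats, against 11.13, 11.20 and 11.27 in water rats. The difference was -0.11 (SE 0.04), among the smallest here, and water rats spread little (SD 0.05). Mvd ran through 9.03, 9.24 and 9.37 in ethanol rats, against 9.12, 9.36 and 9.71 in water rats, a difference of -0.18 with a wide error (SE 0.09, 95% interval -0.37 to 0.01). The SD of Mvd was 0.12 in ethanol rats and 0.23 in water rats, which was the largest water SD among the brightest probe sets of these genes. Of the 8 water rats, 4 lay above every ethanol rat for the brighter Mvk probe set, 1 for the second Mvk probe set and 4 for Mvd.

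Idi1 encodes the isomerase that turns isopentenyl diphosphate into its reactive partner dimethylallyl diphosphate, and it was measured by a pair of probe sets that both separated the groups. The brighter gave 11.63, 11.88 and 11.95 in ethanol rats, against 12.06, 12.24 and 12.36 in water rats, a difference of -0.38 (SE 0.05). The dimmer gave 10.21, 10.52 and 10.57 in ethanol rats, against 10.82, 10.87 and 10.96 in water rats, a difference of -0.42 (SE 0.05) that puts ethanol rats at 74.9% of the water signal. The SD of the dimmer probe set was 0.13 in ethanol rats and 0.05 in water rats, so the difference was larger than either spread. With the group means removed, the Idi1 probe sets correlated at 0.75 over 15 arrays, those of Mvk at 0.73 and those of Fdft1 at 0.70, a description of how far different probes of the same gene followed the same rats.

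Fdps makes farnesyl diphosphate. Its values were 12.28, 12.58 and 12.58 in ethanol rats, against 12.52, 12.68 and 12.75 in water rats, a difference of -0.15 (SE 0.05). Of the 8 water rats, 7 lay above every ethanol rat. Fdft1, squalene synthase, commits farnesyl diphosphate to sterols. Its brighter probe set gave 11.04, 11.34 and 11.51 in ethanol rats, against 11.33, 11.48 and 11.51 in water rats, with extensive overlap and a difference of -0.11 (SE 0.06). The dimmer gave -0.18 (SE 0.06). Fdft1 leans on a single animal: without ethanol rat 5 the brighter probe set differed by -0.06 and the dimmer by -0.14. Without the same rat Pmvk differed by -0.08 and Fdps by -0.11.

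Sqle encodes squalene epoxidase, which adds oxygen to squalene and is a control point of the pathway. Ethanol rats had values of 11.24, 11.34 and 11.38, against 11.63, 11.72 and 11.89 in water rats. The groups were fully apart, with a wide gap between them. The difference was -0.41 (SE 0.04, 95% interval -0.50 to -0.33), or 75.1% of the water signal. It stayed between -0.43 and -0.39 whichever array was left out.

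**Figure D2:**
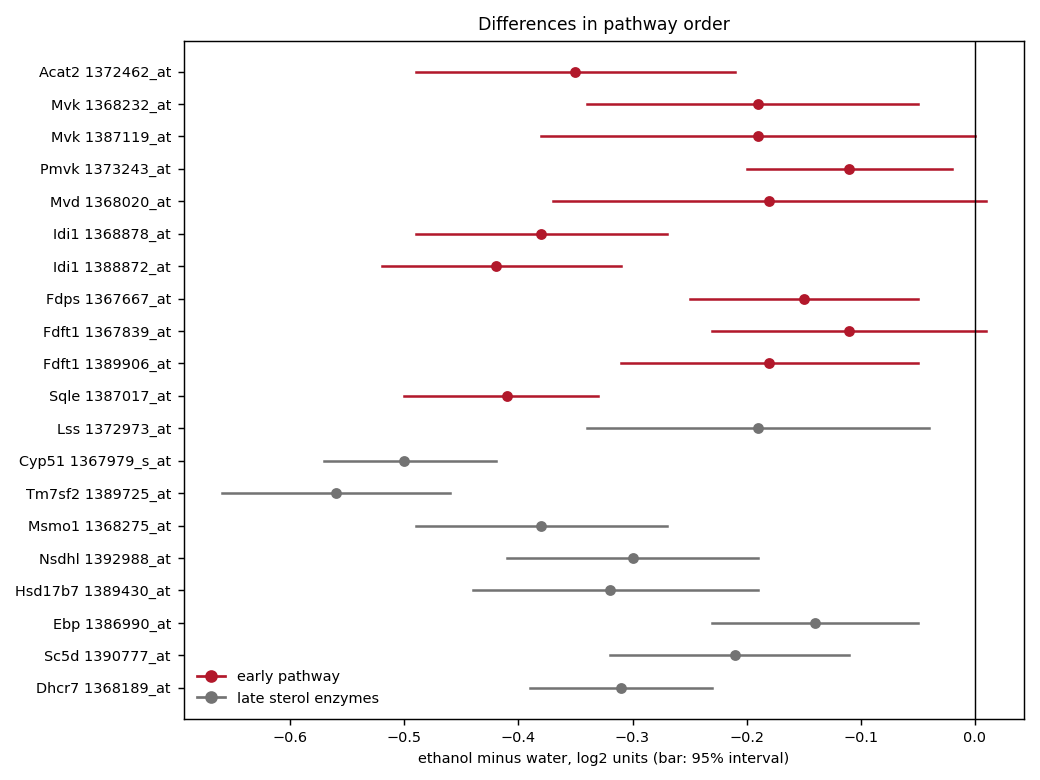
Ethanol minus water difference (log2 units, point) with its 95% interval (bar) for each early pathway probe set that passed the filter and for the late sterol enzymes, in pathway order from the top. Early differences run from -0.42 to -0.11, with Acat2, Idi1 and Sqle farthest from 0, and Cyp51 (-0.50) and Tm7sf2 (-0.56) lie farther still.

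Animals differed in how far these genes lay from the water mean. Taking the brightest probe set of each of the 8 genes and its deviation from the water mean, ethanol rat 5 averaged -0.41 log2 units and was the lowest of all 15 rats in 6 of the 8 genes. The other ethanol rats averaged from -0.24 (rat 7) to -0.13 (rat 6). Water rats averaged from -0.09 (rat 4) to 0.13 (rat 8), and water rat 8 was the highest of all rats in 5 of the 8 genes. Of the water rats it also had the lowest mean of the microglial (9.25), myelin (13.06), astrocyte (12.37), dopamine neuron (12.25) and endothelial (9.38) marker lists and the highest of the neuronal list (12.89), whose part in this was not tested. No ethanol rat average reached the water range, with rat 6 at -0.13 and water rat 4 at -0.09. Because the contrast was known when the genes were chosen, nothing is read from this gap. The 3'-minus-5' signal of the control transcripts, a sign of RNA integrity, was 1.08 in ethanol rat 5, within the range of 0.99 to 1.20 over all arrays. Its mean was 1.08 ± 0.05 (SD) over the 7 ethanol rats, against 1.11 ± 0.05 (SD) over the 8 water rats (two-sided exact permutation p = 0.251).

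**Figure D3:**
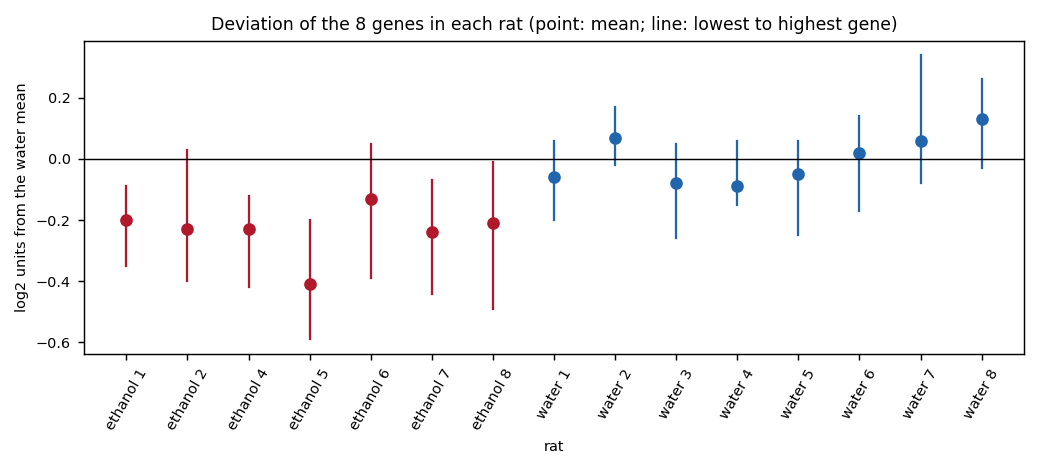
Deviation from the water mean (log2 units) of the 8 genes' brightest probe sets in each rat, as the mean over genes (point) and the span from the lowest to the highest gene (line), ethanol rats left. Ethanol means lie between -0.41 and -0.13 and water means between -0.09 and 0.13.

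Whether the enzymes vary together can be asked inside each group, where the ethanol minus water difference plays no part. The 8 brightest probe sets form 28 pairs, and 56 correlations were computed over both groups. Within ethanol rats (n = 7) 27 of 28 pairs had a Pearson r above 0, with a median of 0.54. Within water rats (n = 8) 19 of 28 did, with a median of 0.50. No like count is given here for pairs of other genes. No pair passed after adjustment in either group, by Pearson or by Spearman (smallest adjusted exact permutation p = 0.0757), and 7 pairs in each group had an unadjusted Pearson p below 0.05. The ethanol pattern rested on a single animal. Without ethanol rat 5, 14 of 28 pairs were above 0 and the median r was 0.02, while leaving out any other ethanol rat kept at least 23. In water rats the count stayed between 16 and 21 whichever rat was left out, but the median r was 0.32 without water rat 8, and 0.20 when all probe sets of a gene that passed the filter were averaged.

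In water rats the negative pairs were mostly those of Pmvk. Its 7 pairs were all negative, from -0.69 with Fdft1 to -0.25 with Sqle, and 19 of the 21 pairs among the other genes were positive, with a median r of 0.58. In ethanol rats Pmvk had a median r of 0.56 with the others. Each pair was also taken without the 2 rats farthest from the median of its earlier gene in the pathway. The ethanol r of Pmvk then ran from -0.44 with Acat2 to 0.72 with Fdft1, and the water r from -0.83 with Idi1 to -0.15 with Mvd. The tightest water pair was Mvk with Mvd (Pearson r = 0.95, exact permutation p = 0.0027, adjusted p = 0.0757; Spearman rho = 0.90, exact p = 0.00456, adjusted p = 0.172), and r was 0.91 without the 2 rats farthest from the Mvk median. Both genes were high in water rats 2, 6, 7 and 8, at 10.03, 9.89, 10.04 and 10.05 for Mvk, where the other water rats had at most 9.74. Idi1, among the genes with the largest group difference, had a median r of 0.07 with the other genes within water rats. The tightest ethanol pair was Acat2 with Fdft1 (Pearson r = 0.93, exact permutation p = 0.00159, adjusted p = 0.0757; Spearman rho = 0.89, exact p = 0.0123, adjusted p = 0.172), with r = 0.81 without the 2 rats farthest from the Acat2 median.

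**Figure D4:**
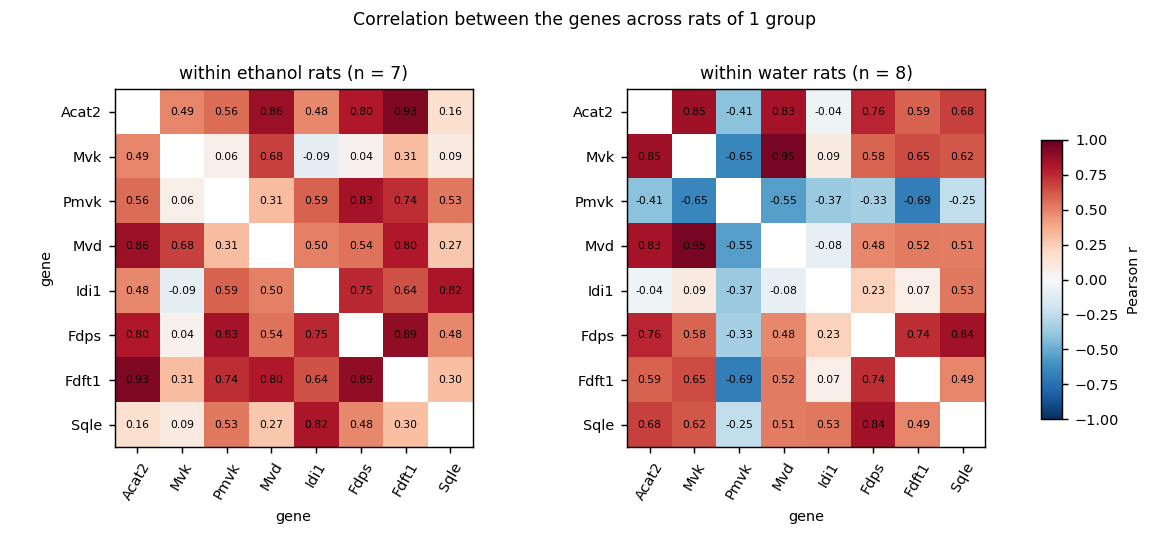
Pearson correlation between the brightest probe sets of the 8 genes across rats of the same group, ethanol (n = 7) left and water (n = 8) right, red above 0 and blue below. The Pmvk row is blue throughout in water rats, down to -0.69, and the ethanol panel is almost all red, up to 0.93.

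The mean of the 8 probe sets, with group means removed, was set against each of 18614 other probe sets over the 15 arrays, as a description. In naming its nearest genes, probe sets without exactly 1 symbol and symbols starting with LOC, RGD or AABR were passed over. Of the rest, the nearest genes outside the sterol lists were Glt1d1 (r = 0.93), Lynx1 (0.91), Tbc1d30 (0.89), Aup1 (0.89), Psmd14 (0.88), Vstm5 (0.88), Plbd2 (0.88) and Cyb561 (0.87). Their own ethanol minus water differences lay between -0.14 and 0.01 log2 units. Among sterol genes the nearest were Stard4 (r = 0.84, rank 23), a cholesterol transfer protein, the SREBP retention factor Insig1 (0.77, rank 127) and the late enzymes Tm7sf2 (0.77, rank 135) and Hsd17b7 (0.73, rank 296). The demethylase Cyp51 was at -0.24 (rank 12207) and Dhcr7 at 0.02, though both differed between the groups. The 99th percentile of r over all ranked probe sets was 0.76. All probe sets come from the same arrays, and the mean correlated at a size of 0.61 with the first principal component, which held 32.4% of the within-group variance. No array was left out of this ranking. The part in it of ethanol rat 5 and water rat 8, with the lowest and highest averages of these genes (-0.41 and 0.13), was not tested.

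The next enzymes of the pathway, from lanosterol onward, were lower too. Of the 9 measured genes of the late sterol list, 7 fell, where 0.542% of all probe sets were called lower, and none rose. This list was chosen with earlier results of these data known, so its counts and adjusted p-values are given as a description. The largest differences were those of Tm7sf2, a sterol reductase (log2 -0.56, adjusted p = 1.37e-05), and Cyp51 (-0.50, adjusted p = 1.50e-06). Msmo1 (-0.38), Hsd17b7 (-0.32), Dhcr7 (-0.31), Nsdhl (-0.30) and Sc5d (-0.21) were the others. Sc5d, the desaturase, was no longer called in 12 of 15 fits that dropped 1 array each (adjusted p up to 0.109). With the mean of myelin markers or of microglial markers as a covariate, the calls of Hsd17b7, Nsdhl and Sc5d ended. Hsd17b7 was then at -0.32 and -0.29, Nsdhl at -0.25 and -0.29, and Sc5d at -0.12 and -0.29, the myelin covariate first (adjusted p between 0.0523 and 0.252). Lss (-0.19, adjusted p = 0.275) and Ebp (-0.14, adjusted p = 0.162) did not pass. The list median was -0.31, against -0.19 for the early enzymes, and whether the early and late steps differ was not tested.

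Genes around the pathway were followed as further lists: branches off farnesyl diphosphate, supply of acetyl-CoA, and control and uptake. They too were chosen with earlier results of these data known and are given as a description. None of the 8 measured genes of the isoprenoid branches passed in limma's fit, 1 had an unadjusted p below 0.05 (2252 of all 18625 probe sets did), and their median was -0.018. Acss2, the acetyl-CoA synthetase that uses acetate, fell (log2 -0.49, adjusted p = 0.00278), while Acly, Acat1 and Bdh1 did not pass. Of the 9 measured control and uptake genes, Srebf1, which drives fatty acid synthesis, rose (log2 0.39, adjusted p = 0.00482), where 0.387% of all probe sets were called higher. With the microglial mean as a covariate both calls ended, with Acss2 at -0.34 (adjusted p = 0.105) and Srebf1 at 0.32 (adjusted p = 0.103). Srebf2 itself averaged 10.87 ± 0.10 (SD) over the 7 ethanol rats and 10.89 ± 0.08 (SD) over the 8 water rats (log2 -0.02, SE 0.05, adjusted p = 0.902).

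Markers of oligodendrocytes and of microglia differed between the groups as well. The marker lists were chosen with earlier results of these data known, so the permutation p of a list mean is given as a description. The mean of 12 oligodendrocyte and myelin markers ran from 12.81 to 13.14 in ethanol rats, against 13.06 to 13.52 in water rats (exact permutation p = 0.00528). Of these 12, 4 fell, where 0.542% of all probe sets were called lower: Ugt8 (log2 -0.69), Fa2h (-0.43), Mal (-0.39) and Cldn11 (-0.25), the last 3 with calls that ended in 1, 9 and 11 of 15 fits without 1 array (adjusted p up to 0.0567, 0.0838 and 0.0879). Opalin, which went the other way, was at 0.20 (95% interval 0.03 to 0.37, adjusted p = 0.327), and the other 11 had lower means in ethanol rats. Mbp, at 16.02 in ethanol rats and 16.05 in water rats, lay near the top of the signal range of the arrays, where a difference may not show, and is not read either way. The mean of 11 microglial markers ran from 9.56 to 9.85 in ethanol rats, against 9.25 to 9.64 in water rats (exact permutation p = 0.00155). Of these 11, Tyrobp (log2 0.41), Ctss (0.36) and Trem2 (0.32) were called higher, where 0.387% of all probe sets were. The call of Ctss ended in 12 of 15 fits without 1 array (adjusted p up to 0.103). All 11 had higher means in ethanol rats, by as little as 0.06 in Itgam and Tmem119. With rat number as a block, the calls of Tyrobp, Ctss, Trem2 and the 4 myelin markers ended (adjusted p from 0.0609 to 0.186 in limma's fit). Ugt8 was then at -0.69, Tyrobp at 0.39 and Trem2 at 0.28. Aif1 was at 0.37 (adjusted p = 0.0908), and Cd68 was too dim to pass the filter. The astrocyte, dopamine neuron, neuron and endothelial lists had 0 called members in limma's fit (2, 0, 0 and 1 at an unadjusted p below 0.05), with exact permutation p of 0.254, 0.244, 0.917 and 0.154. In ethanol rat 5 the myelin mean was 12.95 and the microglial mean 9.63, both inside the ethanol range, while its astrocyte mean of 12.58 was the highest and its dopamine neuron mean of 12.42 the lowest of the ethanol rats. Their part in its low sterol values was not tested.

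The early pathway was refitted with these marker means as a covariate. With the myelin mean the median difference was -0.28, Sqle was at -0.44 and Idi1 at -0.41 in both probe sets, and Mvd was at -0.29, against -0.18 without the covariate. Both Fdft1 probe sets were then at -0.09, against -0.11 for the brighter and -0.18 for the dimmer without it. With the microglial mean, a covariate chosen after seeing the data, Sqle was at -0.36, the Idi1 probe sets at -0.32 and -0.40 and Acat2 at -0.29. The Mvk probe sets were then at -0.05 and -0.01 and Mvd at 0.03. Pmvk was at -0.18, against -0.11 without the covariate, and the dimmer Fdft1 probe set at -0.25. The brighter Fdft1 probe set was at -0.11 and Fdps at -0.14. The median difference was -0.18, against -0.19 without the covariate. The calls of Acat2 and of the brighter Idi1 probe set ended in the microglial fit. With the myelin mean the call of Acat2 ended while its difference was -0.36, against -0.35 without the covariate. Both marker means themselves differ between the groups, so a covariate of this kind can make the group difference smaller or larger. The part of the markers in these differences was not tested.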

How the data were processed

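RNA from 15 ventral tegmental areas was measured on arrays after biotin labelling with 2 amplification cycles from 25 ng, per the labels' protocols. The authors deposited log2 values (RMA is the tool named, per the submitters' processing notes); the sources used here do not give its version or a genome build. The table held 31099 probe sets, 57 of them controls, with 0 missing values. Gene names came from the platform annotation (20826 probe sets with 1 symbol, 436 with several, 9780 with none), and none was named from several symbols. Some items of the lists are not reported here. Probe sets at or above the 40th percentile of the mean (18625) entered a linear model per probe set with moderated variance (R 4.3.3, limma 3.58.1; Benjamini-Hochberg over all 18625, two-sided), ethanol minus water, with no covariate. The fit was tested on simulated data. Correlations and exact permutation tests used scipy 1.17.1 in Python 3.11.15. The genes, lists and tests were chosen with earlier results of these data known.

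Named genes were all 9 members, every called gene of the pathway lists, Srebf2, Th, Mbp, Aif1 and the 8 genes nearest in pattern. Other genes named were chosen after their values were seen. Nothing in the labels ties a rat number to a litter or day. Deviations from the group means of same-numbered rats correlated between -0.41 and 0.29 over 7 pairs, so the numbers were not taken as pairs. The number of arrays limits the precision (median SE 0.0561 log2 units). The labels and the table give no batch or date.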

Additional observations from a re-analysis of the deposited data

Results flagged for a closer look

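In 24 groups of values (12 probe sets in 2 groups), 3 had a rat whose gap to its nearest neighbour, as a share of the group's whole range, passed Dixon's 95% critical value, and chance flags about 1 in 20. Ethanol rat 5 was low for Fdps, at 12.28 with the nearest rat at 12.47 (share 0.6325), and for the brighter Fdft1 probe set, at 11.04 with the nearest at 11.33 (share 0.623). Water rat 7 was high for the dim Mvk probe set, at 6.14 with the nearest at 5.71 (share 0.5263, barely past the critical value), and this probe set did not pass the filter.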

How the results depend on the processing

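The contrast was known when the genes were chosen and the fits share most arrays, so nothing is read from calls that stayed. The 4 called probe sets of the early pathway remained 4 in number in every fit with 1 array left out and without a filter, with a stricter one at the 60th percentile, with array medians subtracted, with trend and robust variance, with array weights and with the dopamine neuron covariate. They numbered 3 with the replicate block and with the myelin covariate, 6 with the first principal component and 2 with the microglial covariate, in which Mvd reversed to 0.03. The lost calls kept their size with the block (the brighter Idi1 probe set at -0.37) and with the myelin covariate (Acat2 at -0.36), and were -0.32 and -0.29 for the same genes with the microglial covariate. The median difference moved to -0.28 with the myelin covariate. The first principal component was taken with group means removed. As a covariate it therefore left the differences as they were and changed only their errors. Over the whole array the 173 calls became 346 with the myelin covariate, 495 with the first principal component and 59 with the replicate block (130 on the same arrays unblocked), and between 100 (without ethanol rat 7) and 180 with 1 array left out, with 102 without ethanol rat 8. The 9 called genes of the other pathway lists became 4 with the replicate block, 4 with the microglial covariate and 7 with the myelin covariate. The block ended the calls of Msmo1 (-0.38), Srebf1 (0.38), Hsd17b7 (-0.33), Nsdhl (-0.31) and Sc5d (-0.21), with adjusted p from 0.0507 to 0.234. Pairs above 0 within ethanol rats ranged from 14 to 27 with 1 rat left out. The causes were not tested. Signal over background limits the dimmest probe set of Mvk, which was not tested.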
